A study of Homo sapiens with 14 samples.

Results

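Retinoic acid (RA) and bone morphogenetic protein 2 (BMP2) were compared at day 5, the earliest sampled time of differentiation, in NT2 cells. NT2 is a human embryonal carcinoma line that resembles pluripotent cells and can be driven toward several fates. The comparison uses 4 of the 14 RNA sequencing libraries: the 2 labelled RA day 5 and the 2 labelled BMP2 day 5, chosen by their labels alone. RA was dissolved in DMSO and given at a final 10 µM to induce neurons. BMP2 was given to induce muscle cells, first tested at 30 ng/ml and then used at 40 ng/ml, and the labels do not say which dose each library had. Medium was renewed at regular intervals in all treated cultures. The other 10 libraries are untreated day 0 cells and days 10 and 21 of each treatment, with 2 libraries a group. The labels name a DMSO control, but a DMSO library of day 5 was not analysed here, so a level at day 0 is given beside the 2 treatments only for orientation. Whether libraries of 1 group were separate cultures is not stated either, and the p-values therefore cover only how these samples varied, which may be technical.

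Retinoic acid is a vitamin A derivative that enters the nucleus and binds retinoic acid receptors (RAR), which sit with retinoid X receptors on DNA and switch on target genes. In the embryo it gives cells a posterior position along the head to tail axis through HOX genes, and it promotes neural fate. BMP2 is a secreted protein of the transforming growth factor family that signals through surface kinases and SMAD proteins, promotes mesoderm, heart and bone, and counteracts neural fate. Each pathway induces genes that limit it, RA its breakdown enzymes and BMP its inhibitors. In bulk RNA, fewer cells of a type and less RNA per cell cannot be told apart.

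RAR binds DNA at repeated half-sites. A well-known form is DR5, a direct repeat of a short half-site with a spacer of 5 bases. DR5 was searched on both strands of RefSeq promoter windows (GRCh38.p14, 250 bases before to 50 after each gene's start). It occurred in 31 of 35116 windows (0.0883%), and in 29 of 27305 genes with a window (0.106%). Of the 11 genes of retinoid synthesis, binding and breakdown with a window, 1 held it, and of 11 retinoid receptors and targets, 1. Of 20 HOX genes with a window, 0 held it. The 2 genes are CYP26A1, whose enzyme breaks RA down, and RARB, which encodes a retinoic acid receptor. Their windows are shown because the 2 genes differ in how the treatments compare, with the DR5 match in capitals. The match lies 53 to 37 bases before the start of RARB and 90 to 74 bases before the start of CYP26A1, where it reads on the opposite strand. The windows are chr3:25428013-25428312 for RARB and chr10:93073643-93073942 for CYP26A1, both on the plus strand.
RARB: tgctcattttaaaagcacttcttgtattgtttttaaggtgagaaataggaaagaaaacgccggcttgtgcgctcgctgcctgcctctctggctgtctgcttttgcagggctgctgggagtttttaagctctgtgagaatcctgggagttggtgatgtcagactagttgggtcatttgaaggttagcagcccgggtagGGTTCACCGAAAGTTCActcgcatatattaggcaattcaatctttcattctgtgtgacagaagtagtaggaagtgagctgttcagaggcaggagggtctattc
CYP26A1: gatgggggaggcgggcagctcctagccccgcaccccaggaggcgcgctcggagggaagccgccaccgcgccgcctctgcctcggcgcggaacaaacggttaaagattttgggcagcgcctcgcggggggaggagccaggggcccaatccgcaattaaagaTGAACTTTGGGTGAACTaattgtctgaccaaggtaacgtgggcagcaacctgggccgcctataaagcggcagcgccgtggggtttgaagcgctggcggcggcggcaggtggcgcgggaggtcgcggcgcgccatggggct
For muscle, the CArG box, which serum response factor binds, was searched the same way. It occurred in 454 windows (1.29%), and in 438 genes with a window (1.6%). The box was found in 4 of 11 smooth muscle genes with a window (ACTG2, MYLK, SMTN and TGFB1I1). It was also found in 3 of 17 striated muscle genes (ACTA1, ACTC1 and MYL7) and 1 of 11 retinoid receptors and targets (NR2F1). The window of ACTC1, the cardiac actin gene, is chr15:34795500-34795799 on the minus strand, with the box in capitals 109 to 100 bases before the start. It is shown because ACTC1 had the widest gap between the treatments among the sarcomere genes with counts in all 4 libraries.
ACTC1: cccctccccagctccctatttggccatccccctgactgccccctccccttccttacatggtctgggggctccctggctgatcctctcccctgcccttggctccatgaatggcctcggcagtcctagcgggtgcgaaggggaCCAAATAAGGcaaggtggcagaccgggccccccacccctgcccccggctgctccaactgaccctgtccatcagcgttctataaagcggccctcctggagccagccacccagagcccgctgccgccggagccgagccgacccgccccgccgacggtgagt
These matches are descriptions of letters, not evidence that a factor was bound.

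Total counts of the 4 libraries ran from 49461120 to 67087209. Expression is given as CPM, counts scaled to a common library size (the total times a TMM factor), first for replicate 1 and then for replicate 2. CPM are not corrected for gene length, so they compare treatments within a gene and not genes with each other. A log2 fold change is RA minus BMP2. A gene is called where the Benjamini-Hochberg adjusted p of edgeR's quasi-likelihood test is under 0.05. Each SE is the size of the log2 fold change divided by the square root of that test's F statistic. It is an approximation, and is unreliable where a group had 0 counts. The cells carried the marks of their label: POU5F1 and NANOG, core factors of pluripotency, averaged 1008 and 249 CPM before treatment. Across genes, log2 CPM of the 2 RA libraries correlated with r = 0.974 and of the 2 BMP2 libraries with r = 0.971. BMP2 day 5 replicate 2 was closer to BMP2 day 10 replicate 1 (r = 0.981) than to its own replicate, while the pair of BMP2 day 10 libraries reached only r = 0.918. These r are taken across genes, which are not independent. RA replicate 1 lay above RA replicate 2 in 48.9% of all genes tested, but in 75.8% of the genes called higher in BMP2 and in 30.7% of those called higher in RA. So RA replicate 1 was on the BMP2 side of its partner in most of these genes.

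At day 5 the treatments differed in genes of body axis position, retinoid handling and neural patterning on the RA side. The BMP2 side held genes of extracellular matrix, heart and smooth muscle and BMP feedback. Among 25 proneural and neuronal genes, 22 were not called. Most smooth muscle and BMP feedback calls did not hold without each single day 5 library. The neural factor gene PAX6 was higher in RA, at 18.8 and 75.9 CPM against 1.45 and 0.644 CPM in BMP2, a log2 fold change of 5.51 ± 0.70 (adjusted p = 0.0021). HAND1, a factor of heart, amnion and placenta, was higher in BMP2, at 483 and 566 CPM against 18.6 and 0.613 CPM in RA (-5.78 ± 1.34, adjusted p = 0.023). The RA libraries of HAND1 lay far apart, with replicate 2 close to the untreated 0.498 CPM and replicate 1 above it, and both lay below each BMP2 library. Of 19142 genes tested, 2338 were called (12.2%), 1142 higher in RA (5.97%) and 1196 higher in BMP2 (6.25%). The libraries of the 2 treatments did not overlap in any called gene, and over all genes tested they did not overlap in 30.9% with RA higher and 29.3% with BMP2 higher. These shares are the background for the list counts below. The median size of a called change was 1.47 on the log2 scale for genes higher in RA and 1.81 for those higher in BMP2. At least a 4-fold difference was seen in 426 and 533 of them, and at least 16-fold in 168 and 188.

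The number called depended on which libraries were fitted. It was 1351 without RA replicate 1, 502 without RA replicate 2, 888 without BMP2 replicate 1 and 1040 without BMP2 replicate 2. Libraries of other days entered through the shared spread: the count was 4206 or 4223 without BMP2 day 10 replicate 1 or 2, 4288 without both, and 1471 or 1469 without RA day 21 replicate 1 or 2. Fitted on the 4 day 5 libraries alone, 1978 genes were called, 902 higher in RA and 1076 in BMP2, and 64% of the 2338 calls were shared. DESeq2 called 4146 genes and held 2337 of the 2338. On RPKM with an offset of 1, 64.5% of calls were higher in RA, against 48.8% in the count test. No called gene had the opposite direction among the calls of any alternative. The call of HAND1 was lost without RA replicate 2, without BMP2 replicate 1 or without BMP2 replicate 2, and in the fit of the 4 day 5 libraries alone, where the calls of ISL1, BMP4, ACTC1, TNNT2 and GATA2 were also among those lost.

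**Figure D1:**
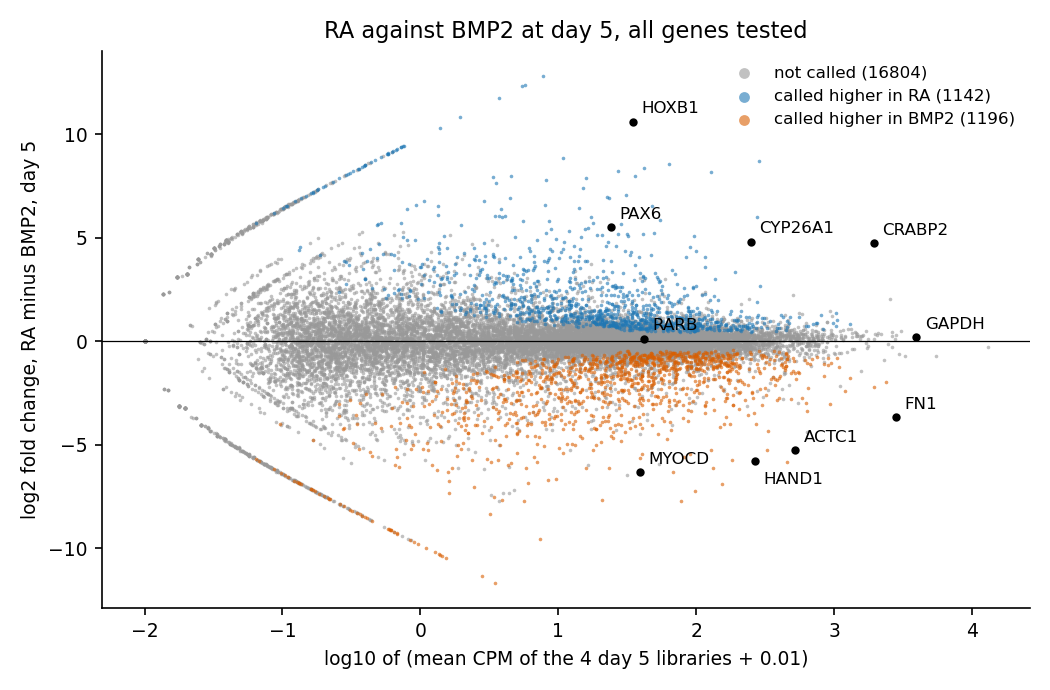
Each point is a gene tested at day 5, with log10 of its mean CPM over the 4 libraries plus 0.01 on the horizontal axis and the log2 fold change, RA minus BMP2, on the vertical axis. Colours mark the 1142 genes called higher in RA and the 1196 called higher in BMP2, and RARB and GAPDH lie near 0 while HOXB1 and MYOCD lie far from it.

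Among the genes with the largest differences, several had no counts in 1 of the treatments. Of the 12 genes with the largest difference on the RA side, 6 came from the HOX clusters, among them HOXB1, HOXA5, HOXA3 and the noncoding transcripts HOTAIRM1 and HOXA-AS2. LEFTY1, given with its pathway, was another. FOXA1, a pioneer transcription factor of endoderm and other tissues, had 0 counts in both BMP2 libraries and 15.9 and 5.95 CPM in RA, at least 392-fold higher against a floor of 3 counts over the BMP2 group. By the same floor the carbonic anhydrase gene CA4 was at least 683-fold, PPP1R17, a phosphatase regulator, at least 493-fold and the serotonin receptor gene HTR3A at least 324-fold higher in RA. In CA4 the libraries were 1.93 and 28.9 CPM, and in HTR3A 1.75 and 13.1 CPM, so replicate 2 carried most of both. PPP1R17 averaged 17.2 CPM before treatment, so there the absence in BMP2 was the departure from day 0. CHRNB4, a nicotinic acetylcholine receptor subunit, had 18 and 25.1 CPM in RA and 0.0951 and 0 CPM in BMP2. Where a group had 0 counts, a fitted log2 fold change depends on the prior count and is no bound. Floors and counting intervals cover counting error only. Between 66.0% and 73.5% of counts from 1 to 19 were even, so a count may not be 1 independent molecule, and these bounds may then be too high.

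On the BMP2 side, TM4SF1, a surface protein of endothelial and tumour cells, and SLC39A2, a zinc transporter gene, had 0 counts in both RA libraries and were at least 257-fold and 224-fold higher in BMP2. DKK1, a secreted inhibitor of WNT signalling, had 8.83 and 20.7 CPM in BMP2 and 2 counts in the 2 RA libraries together, a ratio of 902 with a 95% counting interval of 249 to 7460. COL6A3, a collagen chain, stood at 105 and 205 CPM against 1.3 and 0.204 CPM (-7.74 ± 0.83), and LUM, a proteoglycan of connective tissue, at 169.9 and 219 CPM against 2.18 and 0.496 CPM (-7.21 ± 0.90). TBX20, a factor of the early heart, stood at 13.2 and 10.7 CPM against 0.122 and 0.0875 CPM (-6.82 ± 0.83), with both RA libraries below the untreated 0.333 CPM. PGM5, a protein of muscle adhesion sites, TMEM119, SOX17, an endoderm and endothelial factor, MFAP5, a microfibril protein, HOATZ and HOXA11-AS made up the rest of the 12, with log2 fold changes of -7.65, -7.74, -7.66, -6.91, -8.33 and -7.53. Without at least 1 of the 4 day 5 libraries the call was lost for TM4SF1, SLC39A2, SOX17, MFAP5, HOATZ and HOXA11-AS, and on the RA side for CA4 and HTR3A.

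Retinoid handling genes separated the treatments. Of 13 genes for synthesis, binding and breakdown, 7 were called higher in RA and 0 in BMP2, beside 5.97% and 6.25% of all genes. The list's median log2 fold change was 2.93 against 0.0 over all genes tested. CYP26A1 and CYP26B1 encode the enzymes that oxidise RA. CYP26A1 stood at 609 and 361 CPM in RA and 29.4 and 5.12 CPM in BMP2 (4.81 ± 0.82, adjusted p = 0.0064), with the BMP2 libraries on either side of the untreated 14 CPM. CYP26B1 stood at 157 and 58.8 CPM and 0.761 and 2.89 CPM (5.87 ± 0.91, adjusted p = 0.0042). Both enzymes were far above BMP2 in each RA library. Among the binding proteins, CRABP2, which delivers RA to the nucleus, had 4380.1 and 3174 CPM and 51.2 and 229.6 CPM (4.75 ± 1.04), so its 2 BMP2 libraries differed from each other but stayed below RA. CRABP1, its cytoplasmic relative, had 3.23, DHRS3, which turns retinaldehyde back to retinol, 3.67, and STRA6, the retinol uptake receptor, 2.93. The synthesis enzymes were not called: ALDH1A2, the main RA-producing enzyme of the embryo, had 0.508 and 0.335 CPM in RA and 2.3 and 6.6 CPM in BMP2 (-3.41 ± 1.01, adjusted p = 0.054). Both BMP2 libraries of ALDH1A2 lay above both RA libraries, the reverse of the breakdown enzymes. Members called higher in RA numbered 6, 4, 3 and 7 without RA replicate 1, RA replicate 2, BMP2 replicate 1 and BMP2 replicate 2, and the calls lost in at least 1 of these fits included CRABP2, CRABP1 and DHRS3.

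The receptor gene RARB was not called. It stood at 44.4 and 43.6 CPM in RA and 41.5 and 39.2 CPM in BMP2, against 0.787 CPM before treatment, with a log2 fold change of 0.13 ± 0.48 (adjusted p = 0.9). Its 4 libraries lay close together and all far above day 0, unlike CYP26A1, whose window also held DR5. RARA, the related receptor gene, was higher in RA at 72.2 and 47.8 CPM against 27.2 and 22.3 CPM (1.28 ± 0.22, adjusted p = 0.0062), and RARG and the 3 retinoid X receptor genes were not called. Of 14 receptors and known RA targets, 5 were called higher in RA and 1 in BMP2, beside 5.97% and 6.25% of all genes. The list's median was 0.58. The 5 were RARA, NR2F1, MEIS2, CDX1 and TSHZ1. NR2F1, an orphan nuclear receptor of neural and axial patterning, had 63.8 and 61.6 CPM and 2.11 and 1.6 CPM (5.08 ± 0.49). MEIS2, a partner of HOX proteins, had 209.5 and 221 CPM and 12.8 and 23.5 CPM (3.57 ± 0.43), and the zinc finger gene TSHZ1 87.8 and 94.8 CPM and 7.15 and 11.6 CPM (3.28 ± 0.22). CDX1, an activator of HOX genes, had 5.44. The target higher in BMP2 was TGM2, a transglutaminase that cross-links matrix, at 67.1 and 24.6 CPM against 1.06 and 0.263 CPM in RA (-6.14 ± 1.07, adjusted p = 0.007). Of these, the call was lost without a single day 5 library for CDX1 and TGM2.

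**Figure D2:**
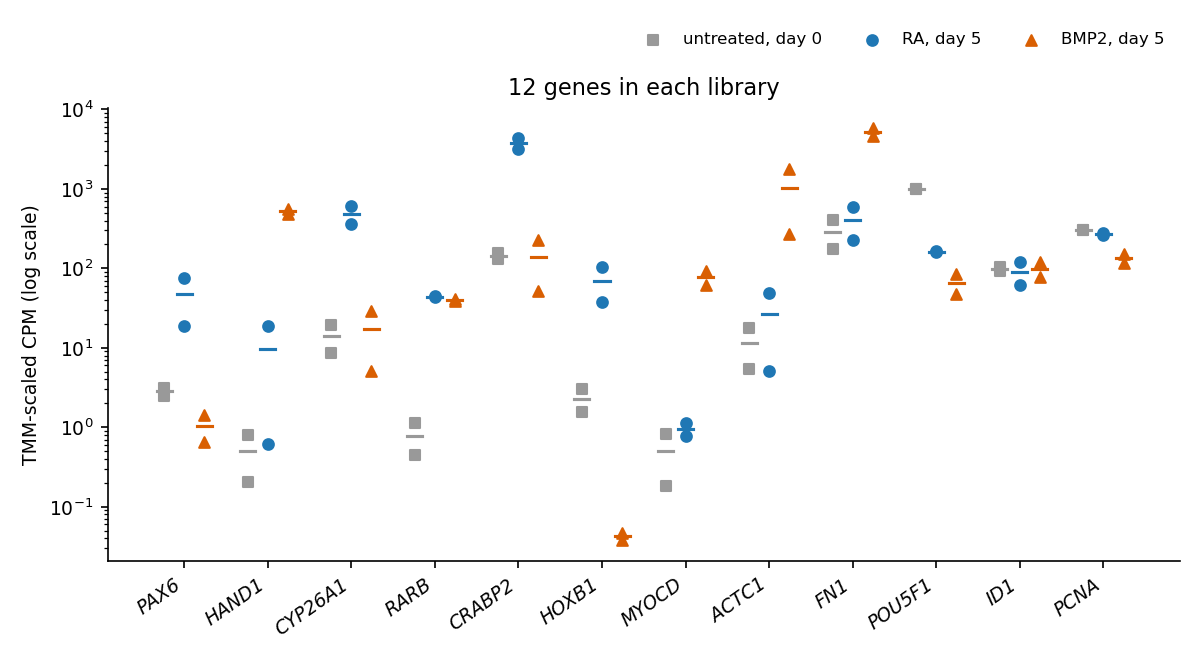
TMM-scaled CPM on a log axis for 12 genes, with squares for untreated day 0, circles for RA day 5 and triangles for BMP2 day 5, each symbol a library and each short line a group mean. The RARB symbols of both treatments lie between 39.2 and 44.4 CPM, while CYP26A1, CRABP2 and HOXB1 are higher in RA and HAND1, MYOCD, ACTC1 and FN1 in BMP2.

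HOX genes, which code for homeodomain factors numbered by their order along 4 clusters and used from head (low numbers) to tail (high numbers), split by number. Of 39 tested, 20 were called higher in RA and 7 in BMP2, beside 5.97% and 6.25% of all genes tested. The median log2 fold change of the 39 was 3.34. All 15 of paralog groups 1 to 5 were called higher in RA (median 7.05, with groups of 0 counts at their bound). Of 12 in groups 6 to 9, 4 were called higher in RA and 0 in BMP2 (median 1.22). Of 12 in groups 10 to 13, 7 were called higher in BMP2 and 1 in RA (median -3.69). HOXB1 stood at 37.3 and 103 CPM in RA and 0.038 and 0.0472 CPM in BMP2 (10.60 ± 1.04, adjusted p = 0.00084), with an untreated mean of 2.28 CPM, above both BMP2 libraries. HOXA2 had 34.9 and 28.6 CPM against 0.038 and 0.22 CPM (7.86 ± 0.79), and HOXA4, with 0 counts in BMP2, was at least 145-fold higher in RA.

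At the other end of the clusters the order turned. HOXA13, a factor of the hindmost body and limb tips, had 9.64 and 17.9 CPM in BMP2 and 0.447 and 0.0583 CPM in RA (-5.82 ± 0.92, adjusted p = 0.0045). HOXD10 had 34.2 and 38.2 CPM and 2.14 and 0.117 CPM (-5.03 ± 0.89), and HOXC13 14.5 and 20.1 CPM and 1.73 and 0.933 CPM (-3.70 ± 0.68). In HOXD10 both RA libraries lay below the 2.92 CPM of day 0 and both BMP2 libraries above it. The exception was HOXB13, at 48.2 and 10.2 CPM in RA and 2.04 and 1.95 CPM in BMP2 (3.87 ± 0.83, adjusted p = 0.017). HOXA9 and HOXA10 were not called, and there RA replicate 1 stood at 14.1 and 11.3 CPM, above both BMP2 libraries, and replicate 2 at 0.481 and 0.0583 CPM, below them. Noncoding transcripts of the HOXA cluster also went both ways: HOTAIRM1 had 8.18 ± 0.46 and HOXA-AS2 8.20 ± 1.05, while HOXA11-AS had -7.53 ± 1.53. HOXA-AS2, 8 of the 15 HOX genes of groups 1 to 5 (HOXA3, HOXA4 and HOXA5 among them) and all 12 of groups 6 to 9 lie mostly within the span of other genes of the table, and 0 of groups 10 to 13 do. How strand was used in counting is not known here, and reads of such neighbours cannot be told apart. The 7 other genes of groups 1 to 5 were likewise all called higher in RA. Without single day 5 libraries the list had 15 to 17 calls higher in RA and 2 to 6 in BMP2, the lowest BMP2 count without RA replicate 2.

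**Figure D3:**
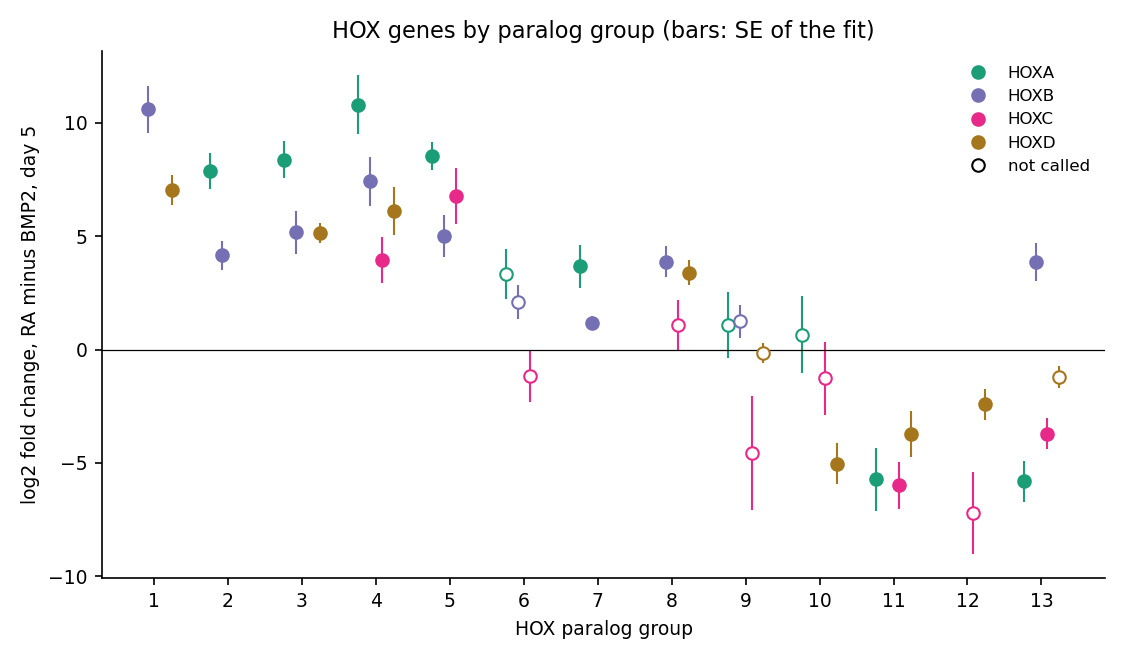
The log2 fold change at day 5, RA minus BMP2, of HOX genes against paralog group, with bars for the SE derived from the F statistic. Colours mark the cluster and open circles genes not called. All genes plotted for groups 1 to 5 lie above 0, and in groups 10 to 13 HOXB13 is the called gene above 0.

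Neural patterning factors were more often higher in RA. Of 32 tested, 9 were called higher in RA and 1 in BMP2, beside 5.97% and 6.25% of all genes tested. The list's median was 2.41. PAX6 is described above. SOX2 and SOX3, which hold cells in a neural progenitor state, had 109 and 218 CPM against 34.2 and 18.9 CPM (2.62 ± 0.64) and 42.8 and 62.2 CPM against 2.09 and 0.849 CPM (5.16 ± 0.73). SOX2 is also a marker of the untreated NT2 state, but was counted here and not among the pluripotency genes. SOX2 averaged 309 CPM before treatment, above all 4 libraries of day 5, so both treatments lay below day 0 and BMP2 further. SOX2 and, among the genes given below, ETV4 lie mostly within the span of other genes of the table. GBX2 and POU3F1, factors of the hindbrain border and of neural progenitors, had 3.86 and 3.90, OLIG2, of motor neuron progenitors, 3.90, and LHX2, of forebrain and eye, 1.78. SOX1, an early neural marker, was low, at 0.488 and 1.05 CPM in RA and 0 counts in BMP2, at least 31.6-fold higher in RA (8.49 ± 2.02). OTX2, a forebrain and pluripotency factor, was low after both treatments, at 6.43 and 2.45 CPM and 2.07 and 3.13 CPM against 107 CPM untreated, and was not called (0.76 ± 0.98, adjusted p = 0.66). The member higher in BMP2 was EN1, a midbrain and limb ectoderm factor, at 6.73 and 7.83 CPM against 0.407 and 0.0583 CPM (-5.03 ± 0.80). The list had 6 to 8 calls higher in RA without single day 5 libraries and 18 without both BMP2 day 10 libraries, and the call was lost in at least 1 of the former for SOX2 and SOX1.

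Genes of neurons themselves were mostly not separated. Of 25 proneural and neuronal genes, 2 were called higher in RA and 1 in BMP2, beside 5.97% and 6.25% of all genes. NEFM, a neurofilament subunit, was higher in RA at 119.8 and 146 CPM against 34.1 and 25.1 CPM (2.16 ± 0.32, adjusted p = 0.0035). L1CAM, an adhesion molecule of axons and some epithelia, was higher in BMP2 at 188 and 128 CPM against 29.3 and 10.1 CPM (-3.01 ± 0.83). DCX, a marker of young neurons, had 23.7 and 32.1 CPM and 46 and 25.7 CPM and was not called (-0.36 ± 0.59). NEUROG2, a proneural factor, had 0.0407 and 2.06 CPM in RA and 0 counts in BMP2 and was not called (adjusted p = 0.11), its counts lying almost wholly in RA replicate 2. Of 14 neural crest genes, 0 were called higher in RA and 2 in BMP2. These were SNAI2, a repressor of epithelial adhesion, at 65.7 and 82.9 CPM against 7.28 and 1.98 CPM (-4.01 ± 0.53), and ETS1, also an endothelial factor, at 193 and 133 CPM against 18.9 and 3.5 CPM (-3.87 ± 0.65). The crest-defining SOX10 stood between 0.0203 and 0.0629 CPM in all 4 libraries, near 0. The call of L1CAM was lost without at least 1 of the day 5 libraries.

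Genes of the BMP pathway were higher in BMP2 where they were called. The shares over all genes tested were 6.25% higher in BMP2 and 5.97% higher in RA. Of 19 ligands, receptors and signal carriers, 4 were called higher in BMP2 and 0 in RA (median -0.81). Ligands made up 3 of the 4. BMP4 had 437 and 268 CPM in BMP2 and 101 and 27.9 CPM in RA (-2.45 ± 0.53, adjusted p = 0.017), the BMP2 gene itself 27.4 and 37.6 CPM and 9.46 and 2.71 CPM (-2.42 ± 0.66), and GDF6 -2.63. In BMP4, RA replicate 2 lay near the untreated 24 CPM and replicate 1 above it. SMAD9, a signal carrier and feedback component, had 51.1 and 47.4 CPM and 12.3 and 6.64 CPM (-2.38 ± 0.39). The type I and type II receptor genes were not called, BMPR1A for example at 128 and 112 CPM and 97.5 and 93.5 CPM. Among 15 inhibitors, 6 were called higher in BMP2 and 0 in RA (median -0.67). They act at each level: NOG (-1.60 ± 0.41) and CHRD (-3.55 ± 1.01) bind the ligand outside the cell, BAMBI is a decoy receptor, and SMAD7 (-1.47 ± 0.33) and SMURF1 (-0.76 ± 0.18) act on receptors inside the cell. BAMBI had 560.3 and 651 CPM in BMP2 and 179.7 and 100.2 CPM in RA (-2.11 ± 0.41, adjusted p = 0.011), with RA on both sides of the untreated 110.3 CPM. CHRD averaged 0.768 CPM untreated and had 42.5 and 62.3 CPM in BMP2 and 5.61 and 3.33 CPM in RA. Without RA replicate 2, 0 members of either list were called, and without BMP2 replicate 1 there was 1 in each. Lost without at least 1 day 5 library were the calls of BMP4, BMP2, GDF6, SMAD9, NOG, CHRD, SMAD7, SMURF1 and BAMBI.

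Direct BMP targets lay mostly on the BMP2 side, but ID1, ID3, MSX1 and MSX2 were not called in the fit of all 14 libraries. Of 16 target factors, 3 were called higher in BMP2 and 0 in RA (median -1.39), beside 6.25% and 5.97% of all genes tested. In 14 the log2 fold change was below 0. The BMP2 libraries lay wholly above RA in 9, beside 29.3% of all genes tested. ID1, the classical BMP target and an inhibitor of differentiation factors, had 119 and 61.7 CPM in RA and 76.9 and 119 CPM in BMP2 against 98.4 CPM untreated (-0.12 ± 0.35, adjusted p = 0.87). ID3 likewise had 107 and 48.3 CPM and 83.7 and 81.6 CPM (-0.09 ± 0.38), while ID2 was higher in BMP2 at 83.9 and 104 CPM against 48.4 and 29.6 CPM (-1.27 ± 0.26, adjusted p = 0.013). In ID2 both RA libraries lay below the untreated 74.9 CPM and both BMP2 libraries above it. GATA2 and DLX1, factors of non-neural ectoderm and other tissues, were the other called members, with -2.76 ± 0.77 and -3.93 ± 0.70. GATA3 had 93.4 and 32.6 CPM and 84.2 and 95.6 CPM, both far above the untreated 4.33 CPM, and was not called (-0.51 ± 0.61). MSX1 and MSX2, homeobox genes induced by BMP, had 116 and 234 CPM and 159 and 214 CPM in BMP2 and 39.1 and 4.89 CPM and 55.6 and 10.1 CPM in RA. Neither was called (adjusted p = 0.055 and 0.054), and in both the RA libraries differed by a larger factor than the BMP2 libraries did. Both genes were called by DESeq2, on RPKM with either offset and without both BMP2 day 10 libraries. In the fit of the 4 day 5 libraries alone neither was called. Without RA replicate 1 there were 6 called members, and without RA replicate 2 there were 0. The calls of ID2, GATA2 and DLX1 did not survive every single removal of a day 5 library.

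Heart and muscle genes were higher in BMP2 where called. Over all genes tested, 6.25% were called higher in BMP2, and the BMP2 libraries lay wholly above RA in 29.3%. Of 14 cardiac factors 4 were called, all higher in BMP2 (median -0.87): HAND1, TBX20, MYOCD and ISL1. MYOCD, a coactivator of serum response factor that drives smooth and heart muscle genes, had 91.9 and 61.7 CPM in BMP2 and 1.14 and 0.788 CPM in RA (-6.32 ± 0.80, adjusted p = 0.002). ISL1, a factor of heart and motor neuron progenitors, had 197 and 218 CPM and 42.1 and 5.66 CPM (-3.12 ± 0.85). NKX2-5 and GATA4, further heart factors, were not called (adjusted p = 0.43 and 0.17). Of 15 smooth muscle genes, 4 were called higher in BMP2 (median -1.91), and the BMP2 libraries lay wholly above RA in 13 of the 15. ACTA2, smooth muscle actin, had 431 and 94.6 CPM in BMP2 and 5.82 and 1.88 CPM in RA (-6.10 ± 0.86, adjusted p = 0.0031), although the 2 BMP2 libraries were far apart and most of its span lies inside other genes of the table. TPM1, a tropomyosin, had 4123 and 3448 CPM and 1271 and 685 CPM (-1.95 ± 0.39), TGFB1I1, an adhesion adaptor, -4.11, and MYH11, smooth muscle myosin, 15.3 and 8.02 CPM and 2.66 and 1.44 CPM (-2.51 ± 0.63). TAGLN, transgelin, had 715 and 384 CPM and 241 and 33.9 CPM and was not called (-2.0 ± 0.87, adjusted p = 0.16), with RA replicate 1 closer to the BMP2 libraries than RA replicate 2. Without RA replicate 1, RA replicate 2, BMP2 replicate 1 and BMP2 replicate 2, the cardiac calls numbered 4, 2, 2 and 2 and the smooth muscle calls 7, 1, 1 and 4. The calls that did not hold in each of these fits were those of HAND1, ISL1, TPM1, TGFB1I1 and MYH11.

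Sarcomere genes of striated muscle gave 4 calls of 20, all higher in BMP2 (median -1.46), beside 6.25% of all genes tested. ACTC1, whose window with a CArG box is shown above, had 1764 and 272 CPM in BMP2 and 48.7 and 5.06 CPM in RA (-5.25 ± 1.14, adjusted p = 0.017). BMP2 replicate 1 was several times replicate 2 in ACTC1, and RA replicate 1 several times RA replicate 2, but the groups did not overlap. TNNT2, cardiac troponin T, had 126 and 27.2 CPM and 7.49 and 1.04 CPM (-4.18 ± 1.15), TNNI1, slow troponin I, -3.58, and SLN, a regulator of the calcium pump, 2.43 and 2.61 CPM and 0 counts in RA, at least 99.3-fold higher in BMP2 (-10.20 ± 1.03). The skeletal muscle regulators MYOD1, MYOG and MYF6 had too few counts to be tested. The heart myosin genes MYH6 and MYH7 were not called (adjusted p = 0.8 and 0.88). Summed over the list, BMP2 replicates 1 and 2 had 2320 and 558 CPM, and RA 193 and 60.4 CPM. Calls numbered 6, 1, 1 and 4 without RA replicate 1, RA replicate 2, BMP2 replicate 1 and BMP2 replicate 2, and those of ACTC1, TNNT2 and TNNI1 were among the lost.

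The extracellular matrix carried the highest share of calls on the BMP2 side among the 29 lists. Of 30 collagen and matrix genes, 16 were called higher in BMP2 and 0 in RA, beside 6.25% and 5.97% of all genes tested. The list's median was -2.48, or -2.25 with groups of 0 counts at their bound. FN1, fibronectin, had 5784 and 4645 CPM in BMP2 and 588 and 229 CPM in RA (-3.67 ± 0.57, adjusted p = 0.0042), and RA lay on either side of the untreated 291 CPM. The basement membrane collagens COL4A1 and COL4A2 had -2.78 and -1.84, and the fibril-forming COL5A1 551 and 524 CPM against 92.1 and 34.7 CPM (-3.08 ± 0.59). All 3 collagen VI chains in the list were called: COL6A1 (-2.12), COL6A2 (-2.66) and COL6A3. COL15A1, of vessel and muscle basement membranes, and BGN, a small proteoglycan, had -3.96 ± 1.02 and -3.07 ± 0.86. The interstitial collagens COL1A1 and COL3A1 had 1367 and 589.8 CPM and 1618 and 826 CPM in BMP2 and 199 and 50.2 CPM and 114 and 4.73 CPM in RA. They were not called (adjusted p = 0.095 and 0.093), and COL3A1 was 1.63 CPM untreated. COL1A1 and COL3A1 were called by DESeq2 and without both BMP2 day 10 libraries. In the fit of the 4 day 5 libraries alone neither was called. Summed over the list the BMP2 libraries had 21600 and 16200 CPM and the RA libraries 4900 and 2910 CPM. The list kept 10, 6, 8 and 10 calls without RA replicate 1, RA replicate 2, BMP2 replicate 1 and BMP2 replicate 2, with COL5A1, COL15A1 and BGN among the calls lost.

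**Figure D4:**
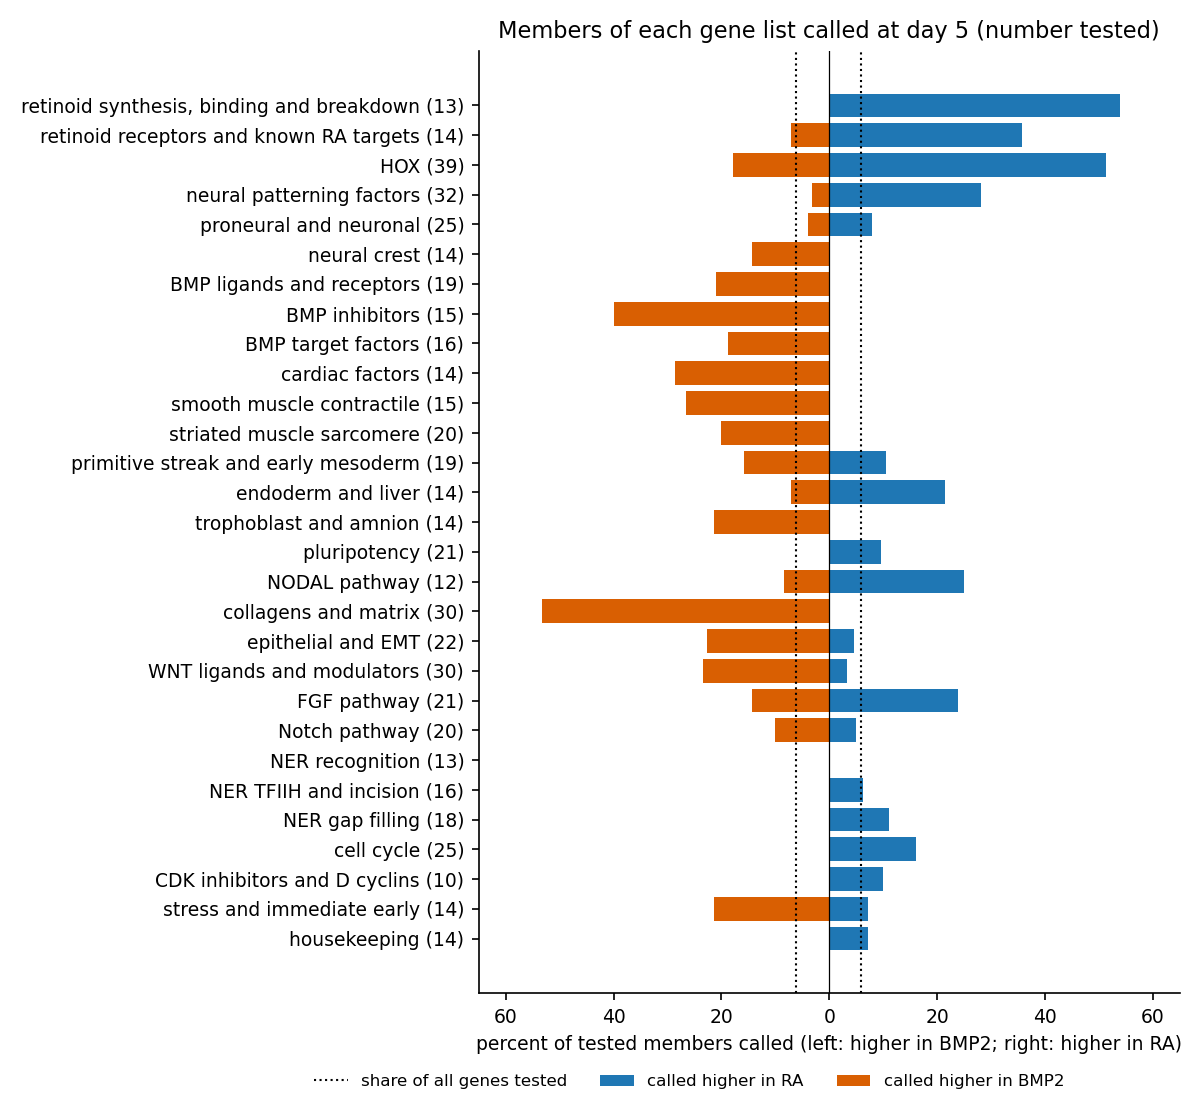
Bars give the percent of tested members of each of 29 gene lists called higher in BMP2 (left) or in RA (right) at day 5, with the number tested in brackets. Dotted lines mark the shares over all genes tested, 6.25% and 5.97%, and the collagen and matrix list reaches furthest left with 16 of 30 and the retinoid list furthest right with 7 of 13.

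Adhesion and epithelial genes gave 5 calls higher in BMP2 and 1 in RA of 22, beside 6.25% and 5.97% of all genes. CDH11, a cadherin of mesenchyme, had 268 and 297 CPM in BMP2 and 23.6 and 8.11 CPM in RA (-4.16 ± 0.47, adjusted p = 0.0013). KRT19, a keratin of simple epithelia, had 289.8 and 571 CPM and 90.6 and 65.8 CPM (-2.46 ± 0.39), and VIM, the mesenchymal filament protein, 654 and 453 CPM and 187 and 145 CPM (-1.74 ± 0.30). The related repressors ZEB1 and ZEB2 went opposite ways: ZEB1 had 28.3 and 30.7 CPM in RA and 10.6 and 10.2 CPM in BMP2 (1.51 ± 0.34), and ZEB2 78.2 and 82.9 CPM and 188 and 191 CPM (-1.23 ± 0.14). SNAI2, given above, was the remaining call. CDH1 and CDH2, E- and N-cadherin, were not called, at 114 and 425 CPM and 93.9 and 46.5 CPM in BMP2 and 61.7 and 40.4 CPM and 77.1 and 58.2 CPM in RA. Of 14 genes of trophoblast and amnion, 3 were called higher in BMP2 (median -0.78). GABRP, an amnion marker, had 174 and 537 CPM in BMP2 and 4.84 and 8.65 CPM in RA (-5.72 ± 1.57). IGFBP3, a growth factor binding protein of many tissues, had 2064 and 1298 CPM and 331 and 77 CPM (-3.04 ± 0.56), and TEAD3 -1.28. VTCN1, another amnion marker, had 43.6 and 167 CPM and 1.59 and 1.81 CPM and was not called (adjusted p = 0.085), and CDX2 was not called (-1.03 ± 1.68). The placental genes ELF5, GCM1 and HLA-G had too few counts to be tested. Summed, this list had 2470 and 2260 CPM in BMP2 and 508 and 179 CPM in RA, and its part in the calls of shared genes such as HAND1 and GATA2 was not tested. The calls of KRT19, VIM, ZEB1, GABRP and TEAD3 were lost without at least 1 day 5 library.

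Among WNT ligands and modulators, 7 of 30 were called higher in BMP2 and 1 in RA (median -1.13). For this and the next 2 lists, the shares over all genes were 6.25% and 5.97%. SFRP1, a secreted WNT binder, had 1459 and 864 CPM in BMP2 and 119 and 103 CPM in RA (-3.39 ± 0.39, adjusted p = 0.0014), and its relative SFRP5 went the other way, at 0.244 and 1.28 CPM in RA and 0 counts in BMP2, at least 32.9-fold higher. SFRP1 averaged 249.8 CPM untreated, between the treatments. The ligand genes WNT5B, WNT2, WNT7B and WNT5A were higher in BMP2, WNT5B at 301 and 295 CPM against 27.3 and 9.49 CPM (-4.02 ± 0.80) and the others with -4.10, -5.74 and -1.16, as was the WNT target and receptor LGR5 (-1.95). AXIN2, a general WNT target, was not called (-0.71 ± 0.46). In the FGF pathway 5 of 21 were called higher in RA and 3 in BMP2 (median 0.52). Those higher in RA were the ligand FGF9 (2.08 ± 0.52), FGF13 (1.74 ± 0.45), the receptor FGFR1 (1.11 ± 0.19) and the responsive genes DUSP6, a phosphatase that limits the signal, and ETV4. DUSP6 had 506 and 361 CPM in RA and 98 and 132 CPM in BMP2 (1.91 ± 0.44), and ETV4 45.6 and 58.6 CPM and 8.54 and 13.3 CPM (2.25 ± 0.29), below the untreated 192 CPM in all 4 libraries. FGF1 (-6.13 ± 0.99) and FGF18 (-3.53 ± 0.52) were higher in BMP2, with the inhibitor SPRY4 (-1.07 ± 0.30). In the Notch pathway the ligand JAG1 had 268 and 182 CPM in BMP2 and 71.1 and 65.8 CPM in RA (-1.72 ± 0.27, adjusted p = 0.0046) and NOTCH2 -0.84, while MFNG, which modifies Notch, had 3.87. The other 17 of 20 were not called. Calls lost without at least 1 day 5 library were those of SFRP5, WNT5B, WNT2, WNT7B, FGF9, FGF13, DUSP6, JAG1, NOTCH2 and MFNG.

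Pluripotency genes were mostly not called. Of 21 tested, 2 were called higher in RA and 0 in BMP2 (median 1.48), beside 5.97% and 6.25% of all genes tested. Without both BMP2 day 10 libraries, 12 and 1 were called. The RA libraries lay wholly above BMP2 in 15 and wholly below in 2, beside 30.9% and 29.3% of all genes tested. POU5F1 had 159 and 164 CPM in RA and 47.8 and 84.7 CPM in BMP2 against 1008 CPM untreated, and was not called (1.29 ± 1.14, adjusted p = 0.5). It was called in the fit of the 4 day 5 libraries alone and in the fit without both BMP2 day 10 libraries. Those 2 libraries, which enter the shared spread, had 109.7 and 1.52 CPM of POU5F1. NANOG had 12.6 and 19.1 CPM and 9.23 and 12.9 CPM against 249 CPM, also not called (0.52 ± 0.88). The called members were GDF3, a ligand of the NODAL type, at 34.9 and 45.2 CPM in RA and 1.1 and 1.16 CPM in BMP2 against 333 CPM untreated (5.14 ± 0.58, adjusted p = 0.0013), and ZSCAN10 (3.43 ± 0.84). In the NODAL pathway, which patterns the early embryo and its left side, 3 of 12 were called higher in RA and 1 in BMP2. LEFTY1, a feedback inhibitor, had 103 and 40.5 CPM in RA and 0.19 and 0.362 CPM in BMP2 (7.99 ± 1.09, adjusted p = 0.0027), so RA lay above and BMP2 below the untreated 7 CPM. NODAL itself had 18.4 and 5.41 CPM and 0.19 and 0.975 CPM (4.34 ± 0.94), and SMAD3, which carries the signal, was higher in BMP2 (-1.23 ± 0.21). Single removals of day 5 libraries ended the calls of ZSCAN10, NODAL and SMAD3.

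Markers of other germ layers went both ways, beside 5.97% of all genes called higher in RA and 6.25% in BMP2. Of 19 primitive streak and early mesoderm genes, 2 were called higher in RA and 3 in BMP2 (median 0.02). TBXT, brachyury, had 0 counts in RA and 0.228 and 1.45 CPM in BMP2, and was not called (-8.61 ± 3.41, adjusted p = 0.14). MEOX1 and FOXC1, factors of somites and paraxial mesoderm, were higher in RA, with 4.35 and 29.1 CPM against 0.38 and 0.22 CPM (5.80 ± 0.98) and 1.72 ± 0.40. PRRX1, of limb and mesenchyme, had 149 and 461 CPM in BMP2 and 38.1 and 10.3 CPM in RA (-3.66 ± 0.96). KDR, a vessel receptor gene, and FOXF2 were also higher in BMP2 (-2.82 ± 0.54 and -6.75 ± 1.37), and KDR was below its untreated 45 CPM after both treatments. Of 14 endoderm and liver genes, 3 were called higher in RA (FOXA1, FOXA2 and PRDM1) and 1 in BMP2 (SOX17). FOXA2 was low, at 0.0814 and 0.671 CPM in RA and 0 counts in BMP2, at least 16.4-fold higher (7.47 ± 1.86). PRDM1, a repressor of many lineages which lies mostly within the span of other genes, had 24.6 and 51.9 CPM and 2.7 and 4.65 CPM (3.38 ± 0.89). SOX17 had 5.88 and 9.71 CPM in BMP2 and 0.0814 and 0 CPM in RA. The calls of MEOX1, FOXC1, PRRX1, KDR, FOXF2, FOXA2, PRDM1 and SOX17 were lost without at least 1 day 5 library.

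Nucleotide excision repair (NER), which cuts bulky lesions such as those of ultraviolet light out of DNA and is named in the study's title, gave few calls at day 5. The shares over all genes tested were 5.97% higher in RA and 6.25% higher in BMP2. Of 13 damage recognition genes, 0 were called, 2 had an unadjusted p under 0.05 in edgeR, and the median log2 fold change was 0.08. The count was also 0 without any single day 5 library, DESeq2 called 0 higher in RA and 2 in BMP2, and without both BMP2 day 10 libraries there were 1 and 3. XPC, which finds the lesion, had 65.2 and 58.7 CPM in RA and 83.9 and 90.5 CPM in BMP2 (-0.49 ± 0.15, adjusted p = 0.055), with both BMP2 libraries above both RA libraries. Of 16 genes of TFIIH and incision, 1 was called, which is near the share over all genes. This was RPA2, a protein that coats single strands, higher in RA at 131 and 138 CPM against 82.4 and 72.8 CPM (0.79 ± 0.18, adjusted p = 0.021). CDK7 and GTF2H5, subunits of TFIIH, had -0.62 ± 0.19 and -0.63 ± 0.19 and were not called (adjusted p = 0.059 and 0.06). In the TFIIH and incision list DESeq2 called 2 higher in RA and 2 in BMP2. Without both BMP2 day 10 libraries there were 3 and 2. XPC, CDK7 and GTF2H5 were each called by DESeq2 and without both BMP2 day 10 libraries. In the fit of the 4 day 5 libraries alone they were not called. Of 18 gap filling genes, PCNA and RFC5 were called, both higher in RA. The log2 fold change was above 0 in 15 of the 18 (median 0.59), and 6 were called higher in RA without both BMP2 day 10 libraries. The RA libraries lay wholly above BMP2 in 12, beside 30.9% of all genes tested. PCNA, the sliding clamp of replication and repair, had 267 and 277 CPM in RA and 150.1 and 117 CPM in BMP2, against 304 CPM untreated (1.03 ± 0.16, adjusted p = 0.0045). RFC5, part of the clamp loader, had 66 and 69.8 CPM and 35.6 and 28.1 CPM (1.09 ± 0.29, adjusted p = 0.037). RPA2, PCNA and RFC5 also serve replication. The calls of RPA2 and RFC5 did not hold without each single day 5 library.

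Proliferation genes lay on the RA side. All 25 cell cycle genes had a positive log2 fold change (median 0.87). The RA libraries lay wholly above BMP2 in 23, beside 30.9% of all genes tested. Beside 5.97% of all genes, 4 were called higher in RA: CCNA2 (1.40 ± 0.39), MCM2 (1.27 ± 0.36), BUB1 (1.04 ± 0.29) and AURKA (0.87 ± 0.22). MKI67, a marker of dividing cells, had 591 and 645 CPM in RA and 294 and 226 CPM in BMP2 against 551 CPM untreated (1.25 ± 0.38, adjusted p = 0.059), so it missed the threshold. MKI67 was called by DESeq2, in the fit of the 4 day 5 libraries alone and without both BMP2 day 10 libraries. With a replicate block on all 14 libraries it was not called. In MCM7, part of the replication helicase, RA had 531 and 534 CPM, near the untreated 551 CPM, and BMP2 327 and 238 CPM. No cell cycle gene was called without RA replicate 1, RA replicate 2 or BMP2 replicate 2, 2 were called without BMP2 replicate 1 and 15 without both BMP2 day 10 libraries. The calls of CCNA2, MCM2, BUB1, AURKA and CDKN2D thus did not hold without each day 5 library. BMP2 replicate 1 lay above replicate 2 in all 25, and growth itself was not measured. The part of these transcripts in the repair gene values was not tested. Of the cell cycle brakes, CDKN2D was higher in RA at 14 and 12.4 CPM against 5.65 and 3.63 CPM (1.51 ± 0.36), and CDKN1A was not called (0.30 ± 1.07).

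Stress genes were called in both directions, and reference genes were mostly not called. Of all genes tested, 5.97% were called higher in RA and 6.25% in BMP2. Of 14 stress and immediate early genes, HSPA5, the endoplasmic reticulum chaperone, JUNB and GADD45B were higher in BMP2 (-0.81 ± 0.15, -1.76 ± 0.35 and -2.10 ± 0.59) and FOSB higher in RA (3.84 ± 1.11). JUNB and FOSB lie mostly within the span of other genes of the table. Of 14 housekeeping genes, HPRT1 was called (1.07 ± 0.26), and the list's median was 0.01. GAPDH, TBP and ACTB had log2 fold changes of 0.20 ± 0.18, 0.13 ± 0.18 and -0.70 ± 0.29 and were not called. The calls of HSPA5, JUNB, GADD45B, FOSB and HPRT1 were lost in at least 1 fit without a day 5 library.

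The genes whose log2 CPM over all 14 libraries ran most like PAX6, among those called at day 5, were RGMB, a BMP coreceptor and guidance molecule (r = 0.977), its antisense neighbour RGMB-AS1 (r = 0.958) and TIFA (r = 0.956). RGMB had 59.1 and 100.5 CPM in RA and 21.7 and 14.9 CPM in BMP2 (2.12 ± 0.35). RGMB-AS1 lies mostly within the span of other genes of the table, so reads of neighbours cannot be told apart. Most like HAND1 were DOK4, a docking protein of receptor kinases (r = 0.980), PMP22, a membrane protein of myelin and other cells (r = 0.977), and BAMBI (r = 0.963). DOK4 had 528 and 730.5 CPM in BMP2 and 45.5 and 17.5 CPM in RA (-4.32 ± 0.61), and PMP22 329 and 331 CPM and 32.7 and 9.07 CPM (-3.98 ± 0.68). These correlations describe 14 libraries that share groups, and carry no test.

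The same contrast was tested at days 10 and 21 in other libraries. At day 10, 2075 genes were called (10.8%), 5.11% higher in RA and 5.73% in BMP2, and at day 21, 2308 (12.1%), 5.99% higher in RA and 6.07% in BMP2. Of the 1142 genes higher in RA at day 5, 559 were called the same way at day 10 (48.9% of the day 5 genes, 57.1% of the day 10 genes) and 0 the opposite way. At day 21 it was 312 (27.3% of the day 5 genes, 27.2% of the day 21 genes), with 35 called the opposite way. Of the 1196 higher in BMP2, 651 were called the same way at day 10 (54.4% and 59.4%) and 0 the opposite way, and 361 at day 21 (30.2% and 31.1%), with 20 opposite. BMP2 day 5 replicate 2 and BMP2 day 10 replicate 1 are the close pair named above. PAX6 stayed higher in RA, with 5.51, 5.24 and 4.85 at days 5, 10 and 21, and HAND1 higher in BMP2, with -5.78, -8.19 and -6.14. CYP26A1 had 4.81, 4.77 and 3.13, and FN1 -3.67, -2.81 and -3.18, each called at every time. RARB, not called at day 5, was also not called at day 10 (0.19) or day 21 (1.28, adjusted p = 0.11). NEFM had 2.16, 4.61 and 2.49, called each time, and DCX, not called at day 5, had 2.68 at day 10 (adjusted p = 0.025) and -2.58 at day 21 (adjusted p = 0.027), higher in RA and then in BMP2. The difference between day 21 and day 5 was tested directly and passed in 314 genes (1.64%). Without RA day 21 replicate 1 or 2 that count was 3, and without both BMP2 day 10 libraries 1540.

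**Figure D5:**
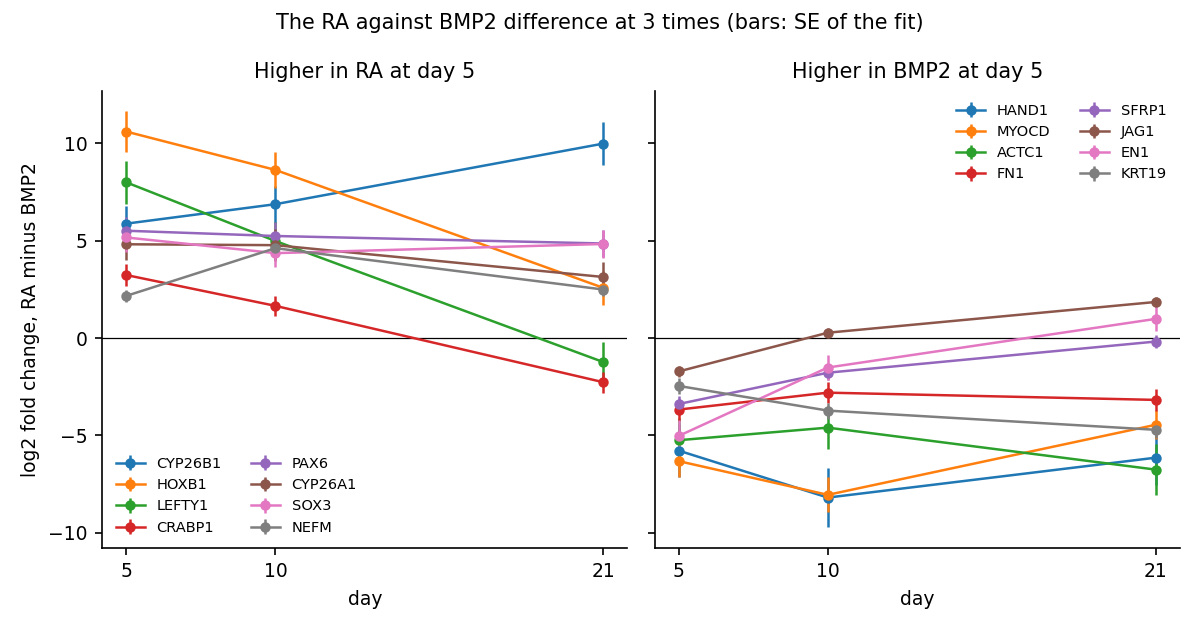
The log2 fold change of RA minus BMP2 at days 5, 10 and 21 for 8 genes called higher in RA at day 5 (left) and 8 called higher in BMP2 (right). Bars give the SE derived from the F statistic. PAX6 and FN1 keep their side at all 3 times, while LEFTY1 and CRABP1 on the left and JAG1 and EN1 on the right lie on the other side of 0 at day 21.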

How the data were processed

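RNA of NT2 cells was sequenced in 14 libraries, 2 for each of 7 groups, and RA day 5 was compared with BMP2 day 5. The authors deposited a table of raw read counts per gene and a table of RPKM values. STAR, featureCounts, DESeq2 and hg19 are named in the submitters' processing notes, and their versions, the strand setting and the counting rule are not given in the sources used here. In the deposited RPKM table the implied length was within 1% of the whole gene span for 89.0% of 5814 genes checked, so RPKM served only in alternatives.

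Counts of all 14 libraries were fitted with edgeR 4.0.16 in R 4.3.3: TMM scaling, a low-count filter (filterByExpr, minimum 10), group means and the quasi-likelihood test, with Benjamini-Hochberg adjustment over 19142 of 25952 genes and a threshold of 0.05. The 7 groups share 1 estimate of the spread (7 residual degrees of freedom). Alternatives used DESeq2 1.42.0, limma 3.58.1 on log2(RPKM + 1) and log2(RPKM + 0.1) for 11641 genes, other scaling and filters, a replicate block and fewer libraries. An exact permutation test of 2 libraries against 2 cannot give a two-sided p below 0.333, so none is reported. Counts were also simulated (18546 genes) with the same mean and spread of a gene in all 7 groups, apart from genes changed in RA day 5. There the fit found none of 50 genes changed 1.5-fold and 8% of those changed 2-fold. It found 66% of those changed 4-fold and 78% of those changed 8-fold, and it made 2 false calls. The real groups differed in mean and in how close their libraries were, so these rates need not hold for the real data.

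Gene names matched 25214 IDs in the gene list used and 58 more in GENCODE 29, and 680 stayed unnamed. The members and the 29 gene lists were chosen with earlier results of these data known, so list counts are descriptions. Genes named are the 12 largest changes in each direction (at least 5 CPM in the higher group), up to 6 called members of each list, a set of markers, 6 repair genes and those most like PAX6 and HAND1. A few genes that meet this rule are not reported here, but stay in the counts of their lists. Other list members are named as examples and were chosen after their values were seen. Of 575 list members, 568 were in the table, and the neuronal genes TUBB3 and NEFL were not analysed here.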

Additional observations from a re-analysis of the deposited data

Results flagged for a closer look

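For the genes below, the difference between RA and BMP2 changed from day 5 to day 21 by edgeR's test of that change itself, adjusted over all genes. The values that follow are the log2 fold change of day 21 minus that of day 5. No cause was tested, and without either RA day 21 library only 3 genes of the whole table passed this test.

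The early RA differences shrank or turned. HOXB1 changed by -8.03 (from 10.60 to 2.57, SE 1.47, adjusted p = 0.03) and HOTAIRM1 by -3.29 (from 8.18 to 4.88, adjusted p = 0.016). SFRP5 changed by a fitted -11.64 (from 8.48 to -3.15, adjusted p = 0.025). It had 0 counts in BMP2 at day 5, so these fitted values depend on the prior count and the day 5 bound is at least 32.9-fold. LEFTY1 changed by -9.23 (from 7.99 to -1.24, adjusted p = 0.018) and CRABP1 by -5.50 (from 3.23 to -2.27, adjusted p = 0.015). MEOX1 changed by -6.33 (from 5.80 to -0.53, adjusted p = 0.043) and OLIG2 by -4.69 (from 3.90 to -0.79, adjusted p = 0.037).

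Among genes below 0 at day 5, the change was toward RA. JAG1 changed by 3.57 (from -1.72 to 1.85, SE 0.39, adjusted p = 0.0081), EN1 by 6.01 (from -5.03 to 0.98, adjusted p = 0.022) and DLX1 by 4.72 (from -3.93 to 0.79, adjusted p = 0.038). SFRP1 changed by 3.21 (from -3.39 to -0.18, adjusted p = 0.019), NOTCH2 by 1.54 (from -0.84 to 0.70, adjusted p = 0.031) and ID3, not called at day 5, by 3.03 (from -0.09 to 2.94, adjusted p = 0.03).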

How the results depend on the processing

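At day 5, 1142 genes were called higher in RA and 1196 in BMP2. DESeq2 gave 1974 and 2172, a test for at least a 2-fold change 223 and 260, and the fit without both BMP2 day 10 libraries 2104 and 2184. On RPKM, the calls higher in BMP2 numbered 684 with an offset of 1, 768 with 0.1, and 752 with an offset of 1 after TMM scaling, an alternative added after the data were seen. Leaving out 1 of the 14 libraries at a time gave 274 to 2096 calls higher in RA and 228 to 2127 higher in BMP2. At day 10 (2075 calls) the counts were 3930 by DESeq2, 365 for 2-fold, 1324 on scaled RPKM and 619 to 4435 without single libraries. At day 21 (2308 calls) they were 4176, 395, 4385 without both BMP2 day 10 libraries, and 289 to 4229 without single libraries. For the change between them (314 genes) they were 1831 by DESeq2, 39 for 2-fold, 686 on RPKM with an offset of 1, 553 on scaled RPKM, 614 with no filter, 1540 without both BMP2 day 10 libraries and 3 to 1509 without single libraries. The cause was not tested. Other scaling, filters and robust dispersions kept the day 5 counts within 1.5 times.

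Same-numbered libraries of RA and BMP2 day 5 deviated together with r = 0.11, but over 21 pairs of groups r ran from -0.342 to 0.146 and exceeded 0.1 in 3, so the numbers were not taken to pair samples. With a replicate block 969 genes were called higher in RA and 1034 in BMP2, with 1661 at day 10, 2019 at day 21 and 258 for the change. With only the 4 day 5 libraries and no block, 902 and 1076 were called, and 105 of 128 called named genes were still called. The block with those libraries, added after the data were seen, gave 1063 and 1400. Under the first block 116 of the 129 called named genes were still called.

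Among the 129 called named genes, 0 changed direction under any alternative. The sign changed in genes not called. Without single day 5 libraries, their log2 fold changes ran from -0.09 to 1.30 in OTX2, -0.20 to 0.68 in CDKN1A, -0.00 to 0.41 in GAPDH, -0.48 to 0.54 in CDH2, -0.77 to 0.36 in ID3, -0.66 to 0.28 in ID1, -1.24 to 0.19 in SOX10, -0.73 to 0.12 in DCX, -1.46 to 0.05 in GATA3 and -3.46 to 0.61 in CDX2. CDH2 was also 0.05 and 0.01 on RPKM with offsets of 0.1 and 1, and 0.01 with the block on day 5 libraries.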
